A study of Mus musculus with 19 samples.

Results

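Fatty acid oxidation was followed as a set of 36 genes named for the enzymes, carriers and regulators of this pathway, read by gene symbol from a table of 20408 genes. Of these, 35 were measured and all 35 passed the filter on low values, which kept 14845 genes in all. Cpt1b, the muscle form of the carnitine palmitoyltransferase of the outer mitochondrial membrane, was not analysed here. The 35 genes fell into 20 mitochondrial enzymes and carriers, 7 peroxisomal proteins, 3 enzymes found in both compartments, and 5 genes of fatty acid activation and regulation.

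The RNA came from the suprarenal abdominal aorta of 19 male mice, each sequenced as 1 poly(A) library of the whole tissue. All mice were ApoE-/- and carried SMA-CreERT2, a tamoxifen-inducible Cre recombinase driven by the smooth muscle actin promoter, and all had received tamoxifen. The IKKβ-/- mice also carried floxed alleles of Ikbkb, the gene of the kinase IKKβ, so that only cells with an active Cre lost the gene. The labels give an age of 8 weeks, which in the methods is the age when tamoxifen began, so that pumps were placed later. Mice ate regular chow, and received either saline or Ang II for 24 h from an osmotic pump (1000 ng per minute and kg of body weight in the RNA sequencing methods, where the labels give a range from 500 to 1000). There were 5 saline-infused and 5 Ang II-treated IKKβ+/+ mice, and 4 saline-infused and 5 Ang II-treated IKKβ-/- mice. The question was how Ang II changed these genes within a day, and whether the change depended on IKKβ in smooth muscle.

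Long-chain fatty acids are joined to coenzyme A, passed into mitochondria as carnitine esters, and shortened in a spiral of dehydrogenation, hydration, a second dehydrogenation and thiolytic cleavage. Peroxisomes run a parallel spiral for very long and branched chains, fed by ABC transporters. The pathway is active in heart, liver and brown fat, and adipocytes of the fat around the aorta express many of its genes, so that an aorta taken with more or less fat can differ in them. In RNA of a whole tissue, fewer cells of a type and less RNA per cell cannot be told apart.

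The libraries held 11382573 to 19906694 reads on genes. Values are normalized counts, the reads of a mouse divided by its size factor. Ikbkb lay between 430.2 and 672 normalized counts in the 9 IKKβ-/- mice and between 594 and 791 in the 10 IKKβ+/+ mice, with 8 of 9 IKKβ-/- mice below the lowest IKKβ+/+ mouse (two-sided exact permutation test, p = 0.000152). The defining smooth muscle transcripts were abundant in every mouse, as the tissue label says (the 5 markers summed to between 297395 and 622464). Mouse numbers ran in a separate block for each group and no source used here names a batch, so that batch and group cannot be told apart.

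Adipocyte transcripts varied widely between mice. Adipoq, which encodes the adipocyte hormone adiponectin, was at 28.6, 115, 288, 385 and 1012 normalized counts in saline-infused IKKβ+/+ mice and at 89.8, 371, 446, 574 and 648 in Ang II-treated IKKβ+/+ mice. In IKKβ-/- mice it was at 17.4, 19.8, 30.5 and 173 with saline and at 194, 489.8, 888, 3298 and 3350.4 with Ang II. The 2 highest values belonged to mice X2385 and X2384, and every Ang II-treated IKKβ-/- mouse was above every saline-infused one, while the IKKβ+/+ groups overlapped.

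Plin1, the coat protein of adipocyte lipid droplets, ran in the same order at the top. It was at 11.1, 122, 277, 313 and 961 normalized counts in saline-infused and at 43.9, 137, 221, 328 and 366 in Ang II-treated IKKβ+/+ mice. The IKKβ-/- mice had 15.4, 19.8, 27.6 and 92.7 with saline and 100.8, 214, 503, 1700.5 and 1834 with Ang II, the last 2 in X2385 and X2384. Again only the IKKβ+/+ groups overlapped. Ang II-treated IKKβ-/- mice were above saline-infused ones by a log2 fold change of 4.70 ± 0.95 (SE) for Adipoq (adjusted p = 0.013) and 4.04 ± 1.02 for Plin1 (adjusted p = 0.035). Neither passed without both X2384 and X2385, and Plin1 also did not pass without saline-infused mouse X2401 or without X2406. The marker counts that follow are from all 19 mice only. Of the 9 white adipocyte markers tested, 7 rose with Ang II in IKKβ-/- mice and 0 passed the test in IKKβ+/+ mice (limma with Benjamini-Hochberg adjustment). None of the 6 brown adipocyte, 5 smooth muscle, 3 endothelial, 3 fibroblast, 3 macrophage and 5 striated muscle markers tested passed in IKKβ-/- mice. Alb, which encodes the liver protein albumin and was the only 1 of 3 hepatocyte markers tested, fell by 5.32 on the log2 scale (adjusted p = 0.00368). Those 3 markers summed to 42.8 to 333 normalized counts with saline and to at most 7.94 with Ang II. The size of this fall therefore depends on the pseudocount.

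X2384 also stood apart in Ucp1, the uncoupling protein of brown fat, with 1156 normalized counts against at most 283 in any other mouse, while X2385, at 19.3, was at the median of its group. Myh11, the smooth muscle myosin heavy chain, was lowest in X2384 and X2385, at 60999.9 and 73287, with 86309.5 as the next lowest value. Results that rest on X2384 and X2385 are therefore given with and without them.

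**Figure D1:**
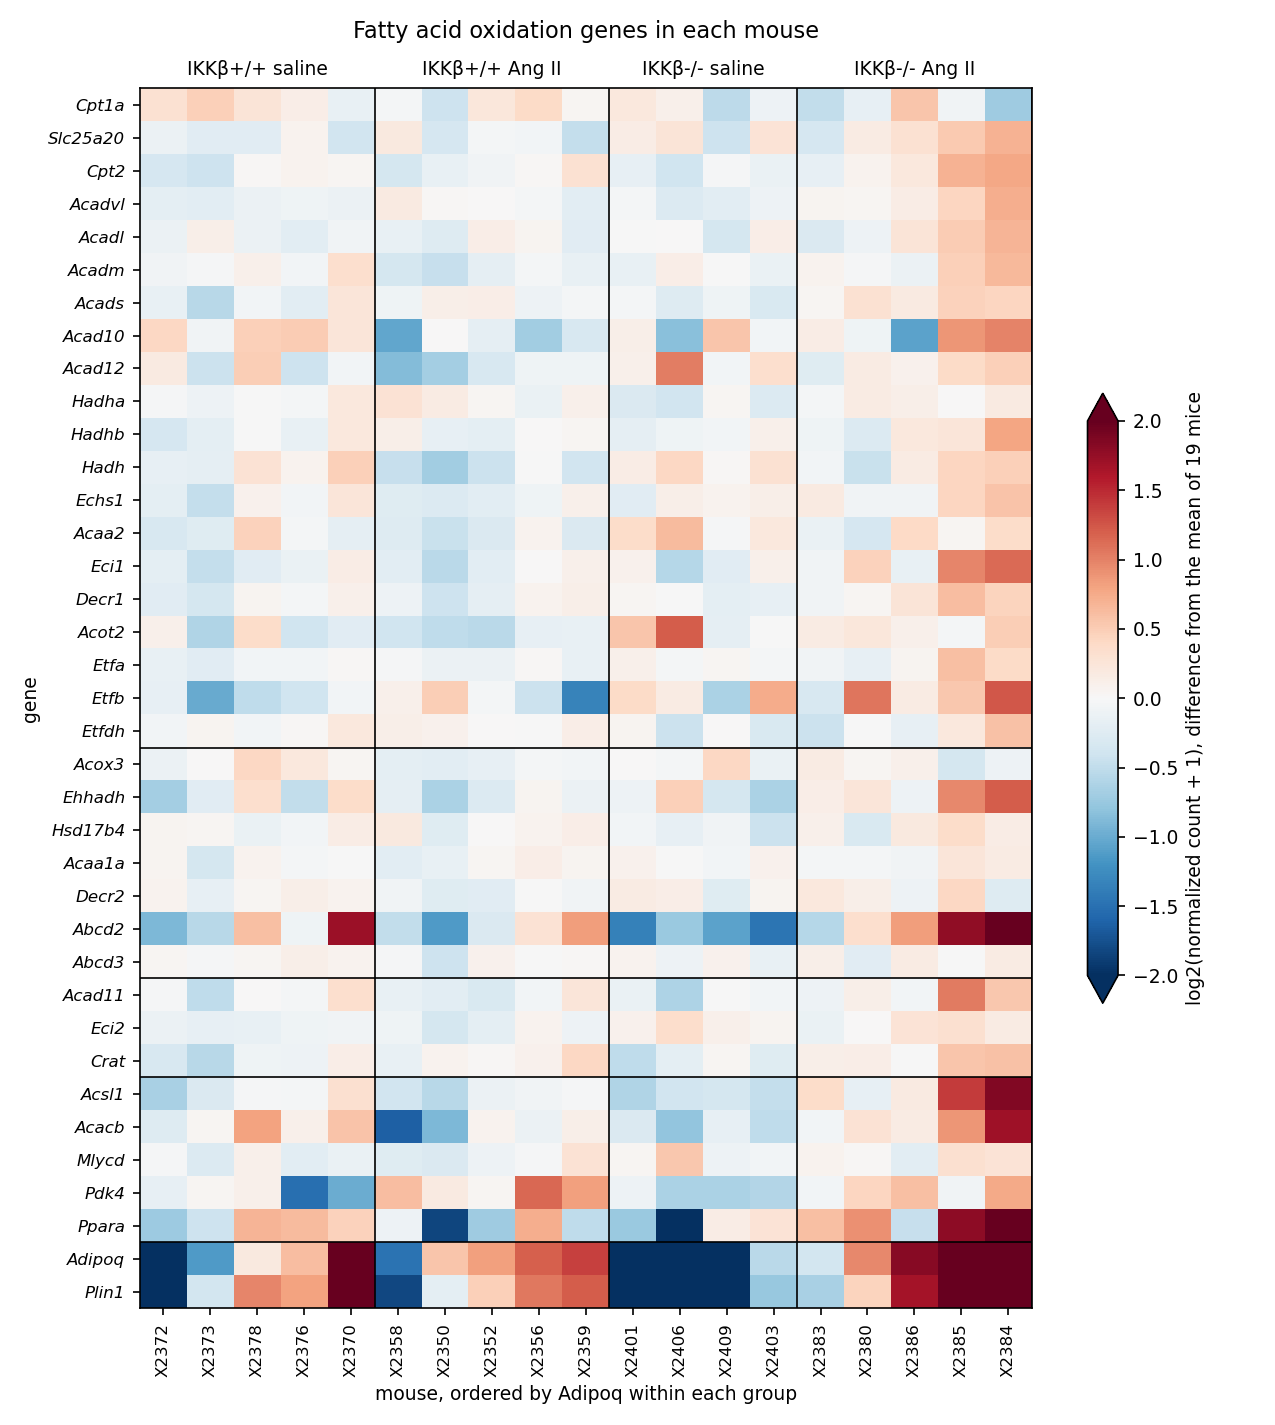
Each row is a gene and each column a mouse, ordered by Adipoq within its group. Colour gives log2(normalized count + 1) minus the mean of that gene over 19 mice, from blue (lower) to red (higher), and lines part the groups and the mitochondrial, peroxisomal, shared and regulatory genes. The 2 columns at the right, X2385 and X2384, are red in most rows, as in Adipoq and Plin1.

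In IKKβ+/+ mice, 2 of 35 genes (5.71%) passed the test of Ang II against saline, beside 8.66% of all genes tested. Pdk4 rose and Hadh fell. The median log2 fold change was -0.01 over the 35 genes, 0.00 over the 20 mitochondrial genes and -0.12 over the 7 peroxisomal genes, beside 0.01 over all genes tested, and 15 of 35 were above 0. To pass in limma, a gene needed a fold change over 1.2 with an adjusted p below 0.1. At an unadjusted p under 0.05 there were 5 of 35 genes, beside 20.3% of all genes, and edgeR and DESeq2 each called 2, beside 9.25% and 12.7% of all genes. With log2 Adipoq as a covariate limma called 4 (Acacb and Acadm beside Pdk4 and Hadh), and with no filter on low values 1 (Pdk4). Shares over all genes are not given for these fits, so the change in the count is not a result about these genes alone. In the same mice 2 of 5 smooth muscle markers rose (Tagln and Cnn1, log2 fold changes 0.66 and 0.82). Of 5 striated muscle markers 1 rose (the creatine kinase Ckm, 2.93), and of 3 fibroblast markers 1 fell (Lum, -1.27). Without passing, the striated markers Acta1 and Tnnt3 leaned up (1.19 and 0.75) and Mylpf and Actn3 down (-0.47 and -0.11). The part of these cell types in the results was not tested.

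Pdk4 encodes the kinase that shuts pyruvate dehydrogenase and so turns mitochondria from glucose to fatty acids. Its normalized counts were 296, 426, 755, 867 and 902 in saline-infused IKKβ+/+ mice and 867, 959.7, 1289, 1485 and 1881 in Ang II-treated ones. Only the lowest Ang II-treated mouse lay within the range of the saline group. The log2 fold change was 1.06 ± 0.28 (SE, adjusted p = 0.036).

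With IKKβ-/-, Pdk4 was at 543, 546, 564 and 790.4 with saline and at 799.7, 809.6, 1133, 1288 and 1428 with Ang II. These groups did not overlap, and the log2 fold change of 0.82 ± 0.29 missed the threshold in limma (adjusted p = 0.145), while DESeq2 called Pdk4 here. The difference between the genotypes' responses was -0.25 ± 0.40 and did not pass either (adjusted p = 0.832). Pdk4 had no upward slope on Adipoq among mice of a group (-0.06 ± 0.07 per doubling of Adipoq, adjusted p = 0.921). With log2 Adipoq in the fit the response of IKKβ+/+ mice was 1.11, and it passed without each mouse in turn (0.81 to 1.21).

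Hadh encodes the mitochondrial dehydrogenase that takes medium- and short-chain hydroxyacyl-CoA through the second oxidation of the spiral. It was at 824, 836, 979.8, 1145 and 1295 normalized counts in saline-infused IKKβ+/+ mice and at 578, 675, 695, 715 and 930.2 in Ang II-treated ones. The groups overlapped through the highest Ang II-treated mouse. Hadh fell by 0.49 on the log2 scale (SE 0.17, adjusted p = 0.098). Leaving out a single mouse ended this call for 11 of the 19 mice, with adjusted p from 0.041 to 0.258. Among IKKβ-/- mice the values ran from 945 to 1236 with saline and from 687 to 1303 with Ang II (log2 fold change -0.10 ± 0.18, adjusted p = 0.818).

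In IKKβ-/- mice, Ang II raised 5 of 35 genes (14.3%): Acsl1, Abcd2, Acads, Acadvl and Crat. Among all genes tested, 5.29% passed in either direction and 2.59% rose. None of the 35 fell. The median log2 fold change was 0.25 over the 35 genes, 0.23 over the mitochondrial and 0.06 over the peroxisomal genes, beside 0.00 over all genes tested, and 27 of 35 were above 0. In 6 of the 35 genes (17.1%) every Ang II-treated mouse was above every saline-infused one, as in 2.41% of all genes tested. There were 15 of 35 genes at an unadjusted p under 0.05, beside 17.8% of all genes, and edgeR called 6 and DESeq2 11, beside 4.86% and 7.84% of all genes.

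**Figure D2:**
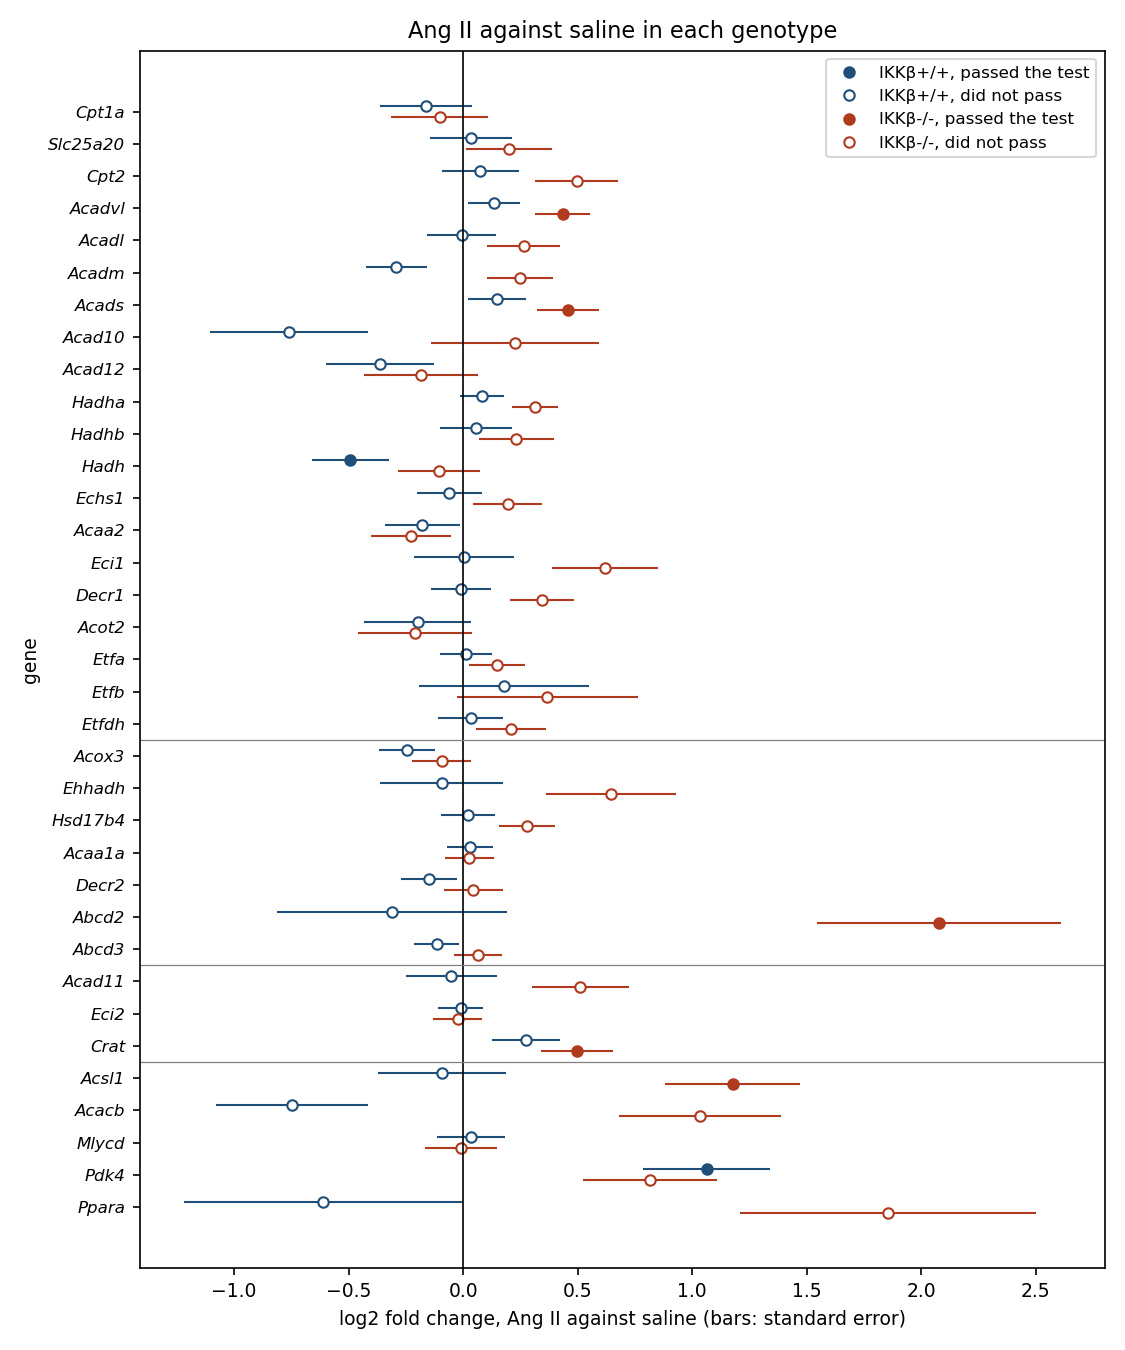
Points give the log2 fold change of Ang II against saline for each of the 35 genes, blue in IKKβ+/+ and red in IKKβ-/- mice, filled where the test was passed, and bars give the standard error. Most red points lie to the right of 0, up to 2.08 for Abcd2, and the blue points scatter around 0 except Pdk4 at 1.06.

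Acsl1, the acyl-CoA synthetase that activates long-chain fatty acids and is abundant in fat, was called whichever single mouse was left out. It was not called when only the groups compared were in the fit. It was at 1503, 1643, 1751 and 1787 normalized counts in saline-infused IKKβ-/- mice and at 2043, 2582, 2926, 6007 and 8232 in Ang II-treated ones. The 2 values far above the rest were those of X2385 and X2384, and the other 3 still lay above every saline-infused mouse. The log2 fold change was 1.18 ± 0.30 (SE, adjusted p = 0.035). Without each mouse in turn it was 0.90 to 1.40, and without both X2384 and X2385 it was 0.58 ± 0.19 (adjusted p = 0.164). In IKKβ+/+ mice Acsl1 was at 1447, 1869, 2207, 2252 and 2837 with saline and at 1546, 1751, 2098, 2172 and 2246 with Ang II (log2 fold change -0.09 ± 0.28, adjusted p = 0.895).

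Abcd2, a peroxisomal transporter of very long chain acyl-CoA found mainly in adipose tissue and brain, was at 34.8, 37.6, 45.7 and 57.7 normalized counts in saline-infused IKKβ-/- mice. With Ang II it was at 65.1, 123, 174, 336 and 465, the last 2 in X2385 and X2384. No mouse of one group reached the other, and the log2 fold change was 2.08 ± 0.53 (adjusted p = 0.039). Without X2384 and X2385 it was 1.35 ± 0.53 (adjusted p = 0.244). IKKβ+/+ mice had 51.6, 66.1, 91.1, 147 and 321 with saline, the highest in X2370, the mouse with the most Adipoq in that group, and 43.9, 68.8, 79.0, 119.6 and 175 with Ang II. These overlapped (log2 fold change -0.31 ± 0.50, adjusted p = 0.781).

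Acadvl and Acads encode the acyl-CoA dehydrogenases that start the spiral on very long and on short chains. Acadvl was at 1229, 1273, 1373 and 1443 normalized counts in saline-infused IKKβ-/- mice and at 1517, 1529, 1640.1, 1991 and 2448 in Ang II-treated ones. Acads was at 268, 276, 311 and 320.4 with saline and at 338, 374, 409, 445 and 458 with Ang II. Neither gene overlapped between the groups, and the spread of the saline group was small in both. Log2 fold changes were 0.43 ± 0.12 for Acadvl (adjusted p = 0.056) and 0.46 ± 0.14 for Acads (adjusted p = 0.075). They were 0.23 ± 0.10 (adjusted p = 0.269) and 0.35 ± 0.15 (adjusted p = 0.30) without X2384 and X2385. In IKKβ+/+ mice Acadvl moved by 0.13 ± 0.11 (adjusted p = 0.543) and Acads by 0.15 ± 0.13 (adjusted p = 0.554).

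Crat, the carnitine acetyltransferase of mitochondria and peroxisomes, which exports excess acetyl groups, was at 505, 610.0, 631 and 739 normalized counts with saline and at 712, 781, 786, 1058 and 1077 with Ang II in IKKβ-/- mice. The groups overlapped by a single mouse (log2 fold change 0.50 ± 0.16, adjusted p = 0.095), and the value without X2384 and X2385 was 0.30 ± 0.16 (adjusted p = 0.402). In IKKβ+/+ mice the 5 saline values ran from 487 to 789 and the 5 Ang II values from 647 to 959 (0.28 ± 0.15, adjusted p = 0.306). Leaving out a single mouse ended the call of Crat for 10 of 19 mice, that of Acads for 5, that of Acadvl for 3 and that of Abcd2 for 2.

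**Figure D3:**
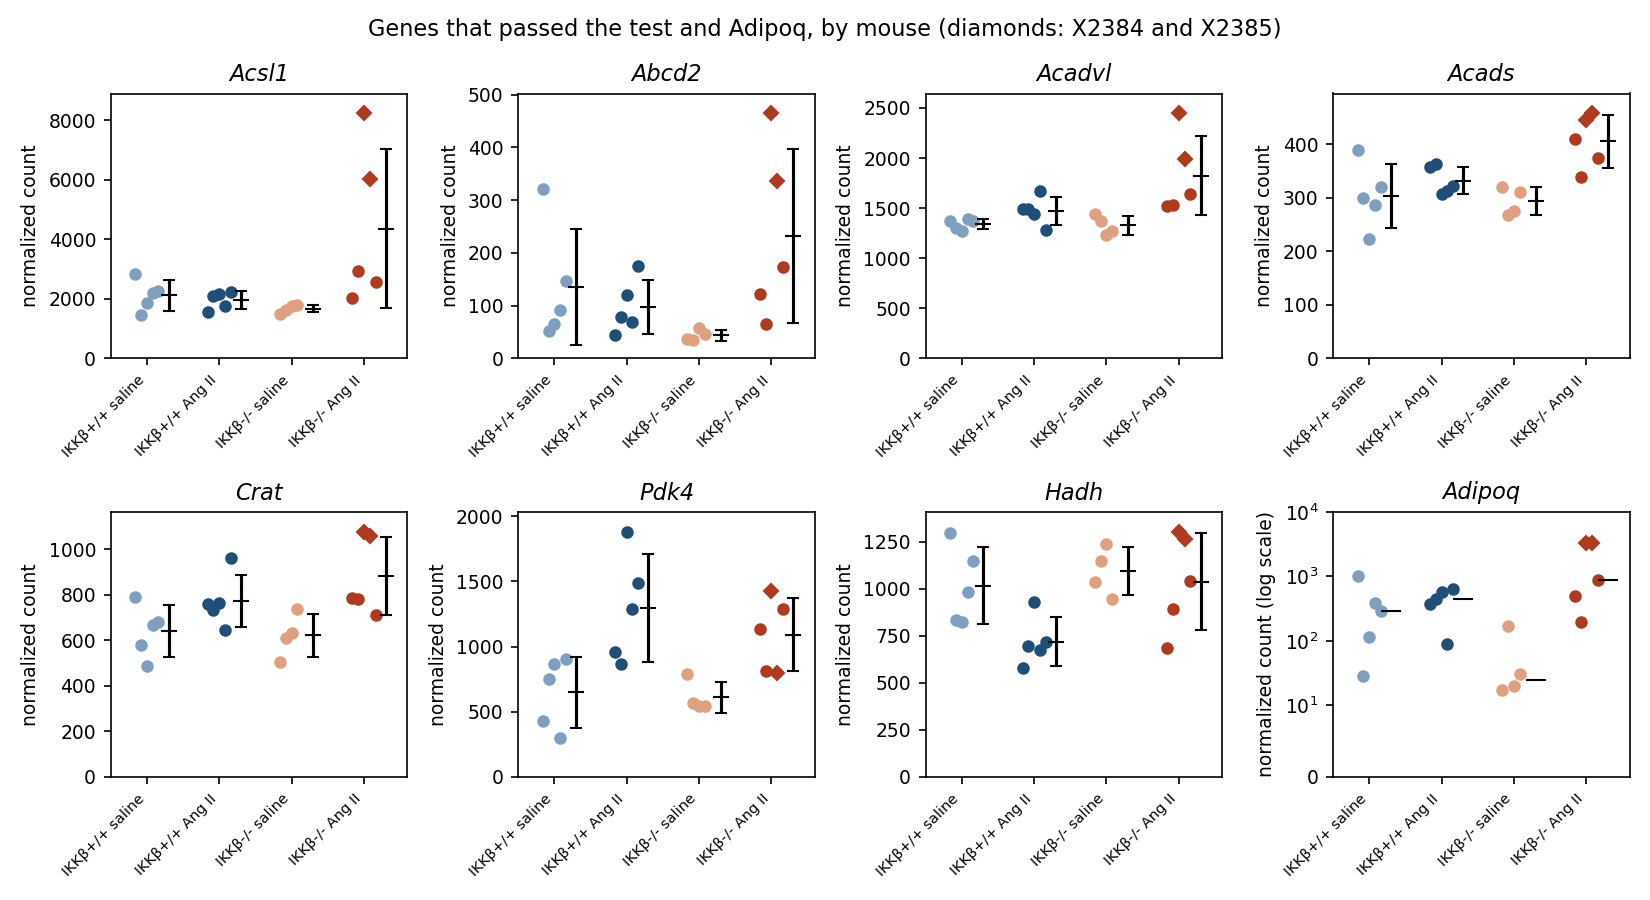
Each point is the normalized count of a mouse, in the 4 groups named on the horizontal axis, for the 7 genes that passed a test of Ang II against saline and for Adipoq (log axis). Bars give mean and SD, and in the Adipoq panel dashes give medians. Diamonds mark X2384 and X2385, which are the highest mice in Acsl1, Abcd2, Acadvl, Acads, Crat and Adipoq. Pdk4 is highest in an Ang II-treated IKKβ+/+ mouse at 1881.

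The call count in IKKβ-/- mice changed with the mice left out, X2384 and X2385 among them. It was 1 without X2384 (Acsl1), 2 without X2385 (Abcd2 and Acsl1), and 0 without both, where 6 genes still had an unadjusted p under 0.05 in limma and the median over the 35 genes was 0.04. It was also 2 without saline-infused mouse X2401 (Acadvl and Acsl1), 2 without X2406 (Abcd2 and Acsl1) and 3 without X2403 (Abcd2, Acadvl and Acsl1), and 10 without X2383. With log2 Adipoq as a covariate 0 genes passed and 2 had an unadjusted p under 0.05, and the median was -0.03. With log2 Plin1 in its place 0 passed, 2 had an unadjusted p under 0.05 and the median was 0.03. Adipoq did not overlap between these 2 groups, and standard errors widened with it in the fit (Cpt1a 0.21 to 0.32, Hadha 0.10 to 0.16). Shares over all genes are not given for these fits, so a loss of calls is not a result about these genes alone. Leaving out mice cannot make separate groups overlap, so the 6 genes without overlap (17.1%) had to keep this without X2384 and X2385. No other gene of the 35 joined them, while the share over all genes went from 2.41% to 4.7%. This count therefore does not show that the rise holds without these mice. The part of adipocyte RNA in the rise of these genes was not tested.

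Differences between genes in how far these fits moved them were not tested. Under the Adipoq covariate Acsl1 went from 1.18 to 0.18, Abcd2 from 2.08 to 0.18 and Crat from 0.50 to 0.02. Acadvl went from 0.43 to 0.23 and Acads from 0.46 to 0.21. Standard errors under the covariate were 0.33 for Acsl1, 0.57 for Abcd2, 0.19 for Crat, 0.17 for Acadvl and 0.19 for Acads. Hadha, the alpha subunit of the trifunctional protein that runs the later steps on long chains, changed little between fits: 0.31 ± 0.10 with all mice (adjusted p = 0.101), 0.31 ± 0.12 without X2384 and X2385 (adjusted p = 0.234) and 0.28 ± 0.16 with Adipoq in the fit (adjusted p = 0.606). Pdk4 was at 0.82, 0.81 and 1.105 in the same 3 limma fits, short of the threshold in each (adjusted p = 0.145, 0.278 and 0.454).

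**Figure D4:**
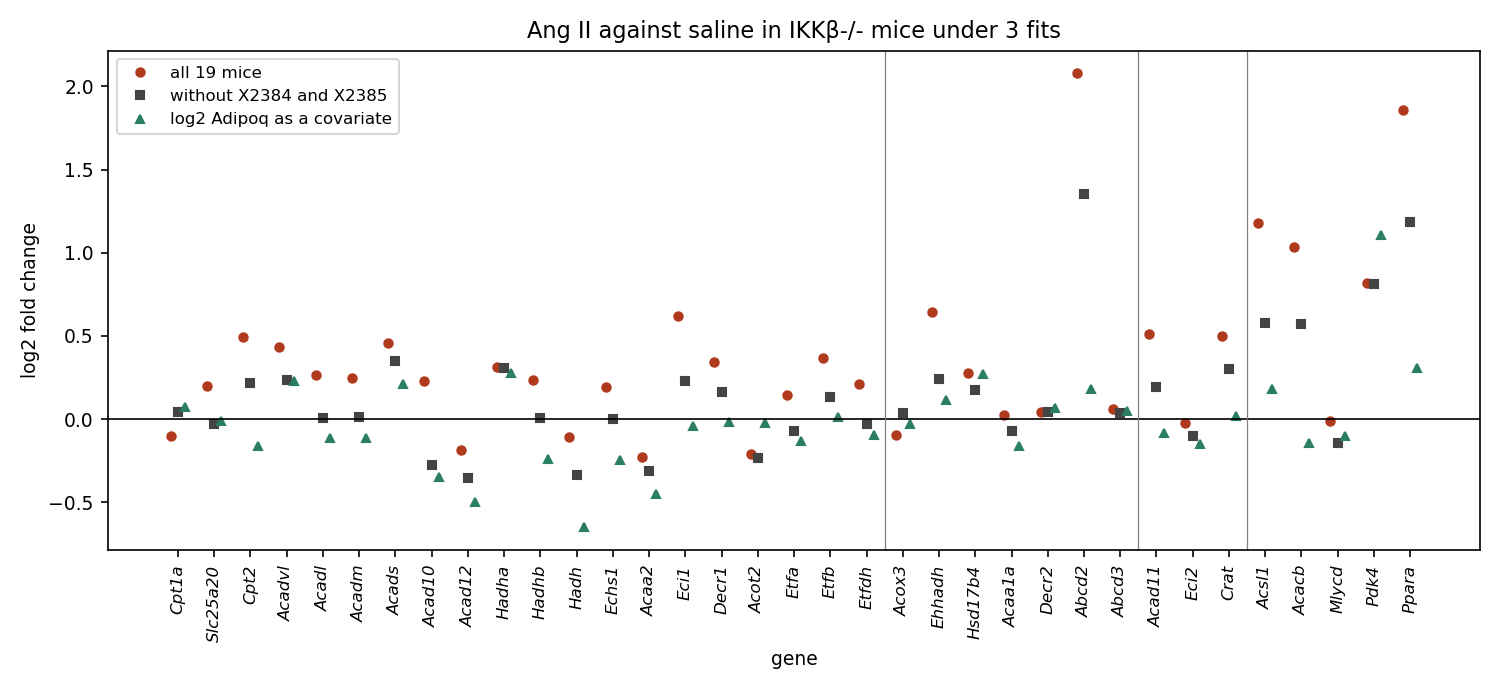
For each gene on the horizontal axis, the log2 fold change of Ang II against saline in IKKβ-/- mice is drawn from the fit of all 19 mice (circles), without X2384 and X2385 (squares) and with log2 Adipoq as a covariate (triangles). Acsl1 moves from 1.18 to 0.58 and 0.18, Hadha from 0.31 to 0.31 and 0.28, and Pdk4 from 0.82 to 0.81 and 1.105.

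Along the mitochondrial route, the carnitine shuttle gave no call in limma or edgeR in either genotype, and DESeq2 called Cpt2 in IKKβ-/- mice. Cpt1a, which makes acylcarnitine at the outer membrane, was at 1698, 2068, 2248, 2333 and 2614 normalized counts in saline-infused and at 1422, 1833, 1938, 2202 and 2460.5 in Ang II-treated IKKβ+/+ mice. The IKKβ-/- mice had 1317, 1757, 2029 and 2193 with saline and 1148, 1341, 1680.1, 1795 and 2781 with Ang II. Its lowest value of all was that of X2384, the mouse with the most Adipoq, in contrast to most of the pathway. Log2 fold changes were -0.16 ± 0.20 (adjusted p = 0.702) and -0.10 ± 0.21 (adjusted p = 0.852).

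Cpt2 returns acyl groups to coenzyme A inside the mitochondrion. It was at 272, 319, 329.7 and 356 normalized counts in saline-infused and at 319.9, 378, 418, 583 and 616 in Ang II-treated IKKβ-/- mice. The upper 2 were again X2385 and X2384, and the groups overlapped (log2 fold change 0.50 ± 0.18, adjusted p = 0.148). In IKKβ+/+ mice it was at 269, 285, 364, 371 and 379 with saline and at 283, 325, 342, 366 and 444 with Ang II (0.08 ± 0.17, adjusted p = 0.851).

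Of the 6 acyl-CoA dehydrogenases, only Acadvl and Acads passed, in IKKβ-/- mice. Acadm, the medium-chain enzyme, was at 1488, 1501, 1543, 1673 and 1989 normalized counts in saline-infused and at 1134, 1228, 1383, 1418 and 1528 in Ang II-treated IKKβ+/+ mice. With the other genotype it was at 1414, 1429, 1563 and 1720.5 with saline and at 1449, 1539, 1648, 2173 and 2459 with Ang II. The log2 fold changes had opposite signs, -0.29 ± 0.13 (adjusted p = 0.225) and 0.25 ± 0.14 (adjusted p = 0.380), and their difference of 0.54 ± 0.20 did not pass (adjusted p = 0.340).

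Of the later steps and the electron transfer enzymes, only Hadh passed in limma, in IKKβ+/+ mice, and DESeq2 also called Hadha in IKKβ-/- mice. Hadha was at 1774, 1857, 1871, 1902 and 2192 normalized counts in saline-infused and at 1743, 1952, 2036, 2129 and 2321 in Ang II-treated IKKβ+/+ mice (log2 fold change 0.08 ± 0.10, adjusted p = 0.678). The IKKβ-/- values were 1452, 1557, 1573 and 1948 with saline and 1855, 1908, 2058, 2133 and 2151 with Ang II. Only the highest saline-infused mouse reached the range of the Ang II group.

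Acaa2, the thiolase that cuts off acetyl-CoA, was at 500.2, 530.4, 552, 605 and 857 with saline and at 458, 509.9, 513, 519.8 and 658 with Ang II in IKKβ+/+ mice, and at 615, 721, 809 and 964 and at 496, 572, 641, 804 and 824 in IKKβ-/- mice. The groups overlapped in both genotypes (log2 fold changes -0.18 ± 0.16 and -0.23 ± 0.17, adjusted p = 0.585 and 0.543). Etfdh passes the electrons of the first oxidation to ubiquinone. It was at 631, 634, 667, 683 and 758 with saline and at 654, 659.6, 698, 715 and 719.6 with Ang II in IKKβ+/+ mice, and at 486, 529.9, 663 and 680.4 and at 486, 585, 657, 763 and 985 in IKKβ-/- mice. These overlapped as well (0.03 ± 0.14 and 0.21 ± 0.15, adjusted p = 0.929 and 0.517). The other mitochondrial genes lay between -0.76 (Acad10) and 0.18 (Etfb) in IKKβ+/+ mice and between -0.21 (Acot2) and 0.62 (Eci1) in IKKβ-/- mice, none past the threshold in limma, while DESeq2 called Eci1 in IKKβ-/- mice.

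No peroxisomal gene other than Abcd2 passed. Ehhadh, the bifunctional enzyme of the classical peroxisomal spiral, was at 82.2, 100.9, 119.7 and 178 normalized counts in saline-infused and at 119.5, 140.5, 152, 252 and 299 in Ang II-treated IKKβ-/- mice (log2 fold change 0.64 ± 0.28, adjusted p = 0.241). In IKKβ+/+ mice it was at 80.2, 91.1, 110.1, 162 and 165 and at 82.5, 106, 114, 118 and 133 (-0.09 ± 0.27, adjusted p = 0.888). X2384 and X2385 held its highest values.

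Acox3, an acyl-CoA oxidase for branched chains, did not follow them. It was at 389, 416, 429 and 566 with saline and at 334, 396, 437, 458 and 478 with Ang II in IKKβ-/- mice, where its lowest value was that of X2385 (-0.09 ± 0.13, adjusted p = 0.769). In IKKβ+/+ mice it was at 393, 430.0, 439, 496 and 567 with saline and at 369.5, 371, 381, 412 and 414 with Ang II (-0.25 ± 0.12, adjusted p = 0.269). Hsd17b4, Acaa1a, Decr2 and Abcd3 lay between -0.15 and 0.03 in IKKβ+/+ mice and between 0.03 and 0.28 in IKKβ-/- mice, none past the threshold.

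Among the regulators, Acacb and Ppara had fold changes of opposite sign in the genotypes without a call in limma, and in IKKβ-/- mice edgeR called Acacb and DESeq2 both. Acacb makes the malonyl-CoA that blocks Cpt1. It was at 273, 337, 351, 485 and 571 with saline and at 105, 175, 302, 342 and 353 with Ang II in IKKβ+/+ mice (log2 fold change -0.75 ± 0.33, adjusted p = 0.209). In IKKβ-/- mice it was at 189, 229, 266 and 292 and at 314, 365, 400.2, 602 and 1066 (1.03 ± 0.35, adjusted p = 0.122), with no overlap.

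Ppara, the nuclear receptor that switches on many genes of the pathway, was scarce. Its normalized counts were 12.7, 15.9, 29.9, 34.2 and 35.1 with saline and 5.36, 12.8, 14.9, 20.1 and 36.2 with Ang II in IKKβ+/+ mice. With IKKβ-/- they were 1.80, 12.5, 23.9 and 26.3 with saline and 15.4, 33.3, 41.6, 77.1 and 108 with Ang II, the last 2 in X2385 and X2384. Log2 fold changes were -0.61 ± 0.61 (adjusted p = 0.617) and 1.86 ± 0.65 (adjusted p = 0.129), with standard errors far above those of the abundant genes.

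The difference of the Ang II response between genotypes passed for 0 of 35 genes and for 0% of all genes tested in limma. At an unadjusted p under 0.05 there were 5 genes (Acadm, Abcd2, Acsl1, Acacb and Ppara), against 11.1% of all genes. The differences were 1.27 ± 0.41 for Acsl1 (adjusted p = 0.288), 2.39 ± 0.73 for Abcd2 (adjusted p = 0.278) and 1.78 ± 0.48 for Acacb (adjusted p = 0.242). edgeR called 0 (0.0202% of all genes) and DESeq2 called these 3 (1.88% of all genes). The rise in IKKβ-/- mice was thus not shown to differ from the response of IKKβ+/+ mice in the main test.

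With saline, 0 of 35 genes differed between IKKβ-/- and IKKβ+/+ mice, where 5.47% of all genes tested passed. The median log2 difference was -0.01, 4 genes had an unadjusted p under 0.05 in limma (19.2% of all genes), and edgeR called 0 genes and DESeq2 1 (Abcd2), beside 5.62% and 9.68% of all genes. The macrophage markers Cd68 and Adgre1 were lower in the same IKKβ-/- mice (-0.93 and -1.02) and Alb was higher (2.97). The hepatocyte markers summed to 1.76 to 35.7 in the saline-infused IKKβ+/+ mice, so that the size for Alb depends on the pseudocount. Abcd2 was lower by 1.31 on the log2 scale in limma without passing (difference -1.31 ± 0.53, adjusted p = 0.186), as were Adipoq (-2.45 ± 0.95, adjusted p = 0.163) and Plin1 (-2.42 ± 1.02, adjusted p = 0.198). Eci2, an isomerase for unsaturated chains, was the only gene whose groups did not overlap (0.27 ± 0.11, adjusted p = 0.173).

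With Ang II, 31 of 35 genes had a higher mean in IKKβ-/- than in IKKβ+/+ mice, and 0 passed in limma, where 0.128% of all genes tested passed. The median difference was 0.31, with 0.36 over the mitochondrial and 0.11 over the peroxisomal genes, beside -0.01 over all genes. Over the 16 other mitochondrial and 16 other peroxisomal enzymes described below, it was 0.25 and 0.28, with 14 above 0 in each. At an unadjusted p under 0.05 there were 19 of 35 genes, against 14.3% of all genes, and edgeR called 0 and DESeq2 6 (0.108% and 3.51% of all genes). Acsl1 differed by 0.96 ± 0.28 (adjusted p = 0.177), Acadm by 0.45 ± 0.13 (adjusted p = 0.184) and Hadh by 0.51 ± 0.17 (adjusted p = 0.213). Without X2384 and X2385 the median was 0.17, 27 of 35 genes were above 0 and 1 had an unadjusted p under 0.05. Shares over all genes are not given for that fit, so these counts are descriptions only. The adipocyte transcripts leaned the same way, Adipoq by 1.48 ± 0.89 (adjusted p = 0.46) and Plin1 by 1.54 ± 0.96 (adjusted p = 0.473), and their part in this difference was not tested. This comparison and those of Ang II against saline share mice, so that their values are not independent of each other.

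Mouse by mouse, the enzymes of both compartments stood highest where adipocyte transcripts did. The mean over the 20 mitochondrial genes of the log2 difference from the 19-mouse mean was 0.57 in X2384 and 0.42 in X2385, the mice with 3350.4 and 3298 Adipoq. In the other 17 mice it ran from -0.26 to 0.08. The peroxisomal mean was 0.51 in X2384 and 0.49 in X2385 and ran from -0.43 to 0.34 in the others, the last in X2370, the mouse with the third highest Adipoq. Without Abcd2 the peroxisomal means of X2384 and X2385 were 0.22 and 0.27, and the others ended at 0.12.

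Below these 2 mice the order was looser in the mitochondrial genes. Adipoq spanned 17.4 to 1012 in the other 17 mice. The mean of the mitochondrial genes was 0.06 both in X2401, with the least Adipoq of all, and in X2370, with 1012. All 5 Ang II-treated IKKβ+/+ mice were below 0 (-0.23 to -0.06), with Adipoq from 89.8 to 648, while 3 of the 4 saline-infused IKKβ-/- mice, with Adipoq from 17.4 to 173, were above it. These are descriptions of 19 libraries.

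**Figure D5:**
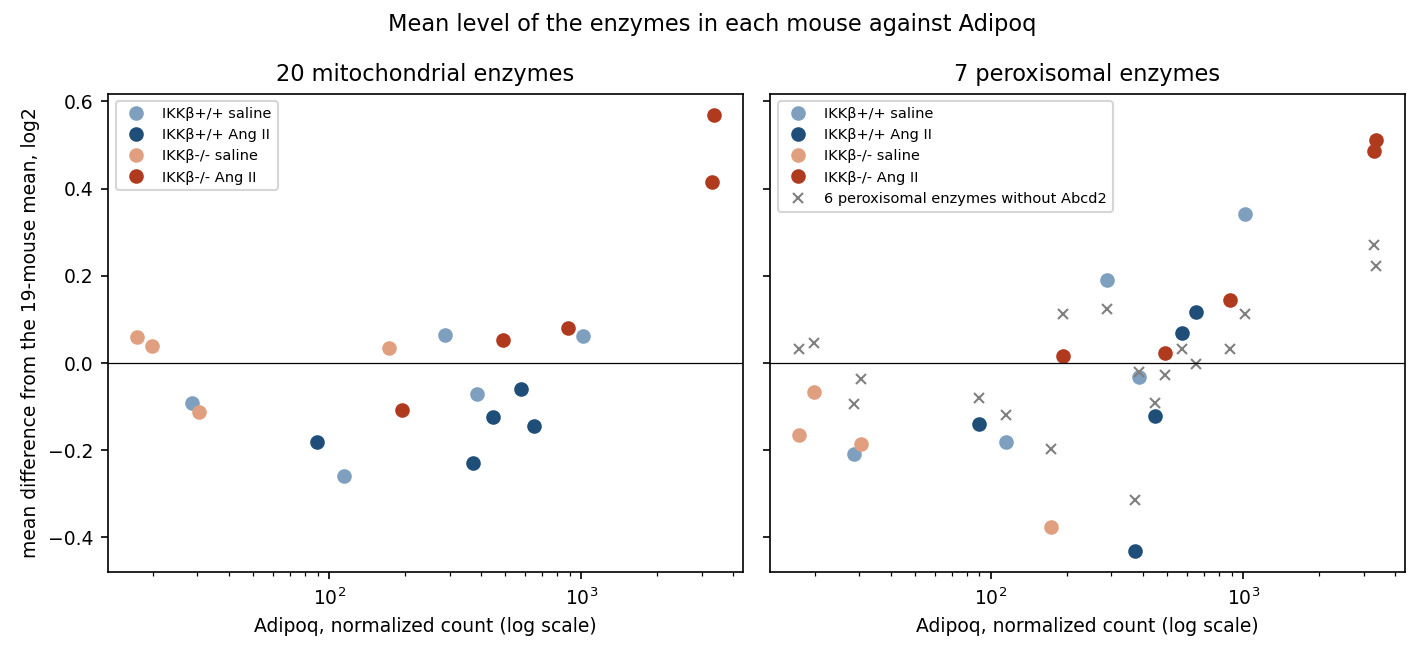
Each point is a mouse, with its Adipoq normalized count on a log axis and the mean log2 difference from the 19-mouse mean over 20 mitochondrial (left) or 7 peroxisomal (right) genes on the vertical axis. Grey crosses leave Abcd2 out of the peroxisomal mean. The 2 mice above 3000 Adipoq are highest in both panels (0.57 and 0.42, 0.51 and 0.49), and in the right panel the crosses are flatter than the points.

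Single genes followed the same 2 mice. Of the 35 genes, 26 (74.3%) had their highest value of all 19 mice in X2384 or X2385, as did 14.98% of all genes tested. They were 15 of 20 mitochondrial and 6 of 7 peroxisomal genes. The exceptions were Cpt1a, Acad12, Hadha, Acaa2, Acot2, Acox3, Eci2, Mlycd and Pdk4. Within the group of Ang II-treated IKKβ-/- mice, X2384 and X2385 were the upper 2 in 24 of 35 genes (68.6%), against 13.2% of all genes tested.

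In the other groups the mouse with the most Adipoq held fewer of the highest values. Among saline-infused IKKβ+/+ mice, X2370 (1012 Adipoq) was highest in 18 of 35 genes (51.4%, against 16.8% of all genes tested). Among Ang II-treated IKKβ+/+ mice, X2359 (648) was highest in 12 (34.3%, against 16.5%). X2403, at 173 the highest of the saline-infused IKKβ-/- mice, was highest in 7 (20%, against 26.4%).

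Within groups, 2 of 35 genes were associated with Adipoq in limma, against 0.647% of all genes tested: Cpt2 and Abcd2. The slope is the log2 change of a gene per doubling of Adipoq among mice of the same group. It was 0.14 ± 0.03 for Cpt2 (adjusted p = 0.029) and 0.40 ± 0.09 for Abcd2 (adjusted p = 0.045). Beside them, Plin1 had a slope of 1.05 ± 0.06, and 7 of the white adipocyte markers (Plin1, Cidec, Retn, Cfd, Lipe, Dgat2 and Acvr1c), 2 of 6 brown adipocyte markers and 0 of 5 smooth muscle markers passed. Acsl1 (0.21 ± 0.05, adjusted p = 0.110) and Acacb (0.25 ± 0.06, adjusted p = 0.118) were just short of the threshold and passed with Plin1 in place of Adipoq.

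The difference in slope between mitochondrial and peroxisomal genes was not tested. The median slope was 0.07 over the 20 mitochondrial genes, 18 of them above 0, and 0.00 over the 7 peroxisomal genes, 5 of them above 0, beside 0.00 over all genes tested. At an unadjusted p under 0.05 there were 9 mitochondrial genes and 1 peroxisomal gene, against 5.4% of all genes. Over the 16 other mitochondrial and 16 other peroxisomal enzymes described below, the median slope was 0.05 and 0.04. The slopes of Hadha (0.01 ± 0.03), Hsd17b4 (0.00 ± 0.03) and Abcd3 (0.00 ± 0.03) were near 0, and those of Cpt1a (-0.04 ± 0.05) and Pdk4 (-0.06 ± 0.07) were below it. Without X2384 and X2385, or without either of them or X2383 alone, 0 of 35 genes passed, and without X2370 or X2372 only Cpt2 did, while without X2403 there were 4. With X2384 and X2385 both left out the median slope over the 35 genes fell from 0.07 to 0.03. In that fit 6 of 35 genes had an unadjusted p under 0.05, beside 374 of all 14844 genes tested. The number that passed over all genes was 46.

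On GRCm38, the 7 genes that passed a test of Ang II against saline lie apart from each other, on separate chromosomes: Acsl1 at chr8:46471037-46536051, Abcd2 at chr15:91145871-91191799, Acadvl at chr11:70010183-70015411, Acads at chr5:115110299-115119346, Crat at chr2:30400471-30415813, Pdk4 at chr6:5483351-5496309 and Hadh at chr3:131233419-131272101. Adipoq lies at chr16:23146536-23158028.

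Per kilobase of exon, the pathway was led by Acadl, Etfa and Acadvl, with a mean over all mice of 771, 633 and 559 normalized counts per kb. The long-chain synthetase Acsl1 had 246, Cpt1a 254 and Cpt2 155 per kb. At the other end were Acad10 (6.46), Ppara (7.64), Acad12 (13.3), Abcd2 (22.1) and Etfb (22.9). Adipoq, at 473 per kb, was thus within the range of the mitochondrial enzymes on average, and ran from 43.5 per kb in saline-infused to 1190.5 per kb in Ang II-treated IKKβ-/- mice as group means. Acot2, Acaa1a and Acad10 with Acad12 have close relatives that the counting could have split, and exons of Etfb and Acad11 overlap those of other genes on the same strand.

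A further 74 genes of fatty acid handling were listed by process, of which 67 were tested. In IKKβ+/+ mice 2 of 67 rose with Ang II, both thioesterases (Acot9 and Acot13), and none fell, beside 8.66% of all genes tested that passed in either direction. Among IKKβ-/- mice 7 of 67 rose, beside 2.59% of all genes, and 1 fell (5.29% of all genes passed in either direction), none of them among the 16 other mitochondrial and 16 other peroxisomal enzymes tested. Those that rose were Cd36 and Slc27a1 (fatty acid uptake), Fabp4 (the fatty acid carrier of adipocytes), Pparg (the nuclear receptor of adipocyte differentiation), Plin5, Ucp3 and Adipor2 (an adiponectin receptor). Plin5 and Ucp3 were at or near 0 with saline, so that the size of their rise depends on the pseudocount.

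Cd36 was at 278, 299, 391 and 473 normalized counts with saline and at 452, 975, 2814, 3849 and 3899 with Ang II in IKKβ-/- mice (log2 fold change 2.35 ± 0.53, adjusted p = 0.022). Fabp4 was at 946, 1014, 1104 and 3761 and at 1829, 4488, 5878, 13784 and 15509 (2.17 ± 0.57, adjusted p = 0.043). X2384 and X2385 held the upper 2 values of each. Fabp3, the carrier of muscle, went the other way, from 98.0, 117, 123 and 131 with saline to 37.0, 44.96, 47.6, 64.7 and 91.3 with Ang II. These groups did not overlap (-1.09 ± 0.27, adjusted p = 0.0355), and Fabp3 was also the 1 gene of this list that differed between the genotypes with saline (0.88 ± 0.27, adjusted p = 0.093). Associated with Adipoq within groups were 8 of 67, beside 0.647% of all genes, among them Cd36, Fabp4, Pparg and Lpl.

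Promoter sequences were at hand for 30 of the 36 genes, from RefSeq on GRCm38.p6, as 32 promoters. They were searched, on both strands and in the 250 bases before each start, for the direct repeat that PPAR-RXR dimers bind: the half-site AGGTCA given again after 1 base of any kind. No promoter of these genes held it exactly, as against 11 of 32851 promoters in the table. With up to 2 mismatched bases it was in 2 of 32 (6.25%) and in 3.24% of all promoters. These were the promoters of Echs1 (enoyl-CoA hydratase) and Etfa (a subunit of the electron transfer flavoprotein), shown here since they were the only matches, with the matched bases in capitals.
Echs1: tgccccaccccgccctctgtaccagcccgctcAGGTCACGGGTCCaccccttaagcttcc
Etfa: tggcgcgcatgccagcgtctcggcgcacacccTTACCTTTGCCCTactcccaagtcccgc
The Echs1 stretch lies at chr7:140116477-140116536 and the Etfa stretch at chr9:55512293-55512352, both read from the minus strand, with the match starting 83 and 77 bases before the start. The Etfa match is on the opposite strand of the gene. Neither gene passed a test of Ang II against saline (in IKKβ-/- mice, log2 fold changes of 0.19 ± 0.15 and 0.15 ± 0.12, adjusted p = 0.544 and 0.571). The searched bases before Acsl1, Acadvl, Acads, Pdk4 and Hadh held no match at this limit.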

How the data were processed

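RNA from the suprarenal aorta of 19 mice was analysed. The authors made stranded poly(A) libraries, used Trimmomatic 0.35 for trimming and STAR 2.7.1a for alignment (GRCm38), assigned reads to Gencode genes and scaled each library by its DESeq2 1.30.1 size factor. The authors deposited these normalized counts, a signal in the sense of counts per size factor. Within 0.01 reads, 100% of values were whole multiples of 1 read, from which reads were recovered for the count tests. The libraries held 11382573 to 19906694 reads on genes, which limits the precision of scarce genes.

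A gene was tested where 4 or more mice had a normalized count of 10 or more, which left out 5563. In R 4.3.3, limma 3.58.1 (trend) was fitted to log2(normalized count + 1) with 4 group means over all 19 mice. Fold changes are on this scale, which understates those of scarce genes. Tests were two-sided, with Benjamini-Hochberg adjustment over all genes tested, and to pass, a gene needed a fold change over 1.2 with an adjusted p below 0.1. The slope on log2 Adipoq was tested in the same fit with Adipoq added (14844 genes, adjusted p under 0.1 alone). The fit was tested on simulated data. Errors are standard errors of the fit. The members and lists were chosen with earlier results of these data known. Genes named with all values are those that passed a test and 1 or more for each step of the pathway. Of the other pathway genes, those past the threshold were named, with values for a few chosen after their values were seen. No 2 mice of a group agreed within sampling noise (36 pairs, chi-square per degree of freedom of 21.1 or more). The replicates are mice, so that p-values measure the spread between mice.

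Alternatives were a pseudocount of 4, no filter, TMM scaling and the quasi-likelihood test (edgeR 4.0.16), DESeq2 1.42.0 on the recovered reads, only the groups compared, stricter limits (adjusted p of 0.05, or fold change of 1.5), log2 Adipoq or Plin1 as a covariate, and each mouse left out. Leaving out X2384 and X2385 together was chosen after seeing the data. Exon lengths came from Gencode vM21.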

Additional observations from a re-analysis of the deposited data

Results flagged for a closer look

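Extreme mice were sought in each of the 4 groups for 17 members of the pathway and for Adipoq and Plin1, by the gap of the highest or lowest mouse to its neighbour over the range of the group (Dixon's test at the 95% level). In 76 combinations of gene and group, 3 stood out, all among saline-infused IKKβ-/- mice, and chance marks about 1 in 20. Pdk4 was at 790.4 normalized counts in X2401, against 543 to 564 in the other 3 mice. Adipoq was at 173 in X2403, against 17.4 to 30.5, and Plin1 at 92.7 in the same mouse, against 15.4 to 27.6. X2384 and X2385 were not marked, since each is the other's neighbour. For the difference between the genotypes' responses, limma and edgeR called none of the 35 genes, 5 had an unadjusted p under 0.05 in limma, and DESeq2 called 3 (Abcd2, Acsl1 and Acacb).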

How the results depend on the processing

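No paired analysis was possible because the groups share no replicate numbers. The 2 genes called in IKKβ+/+ mice were 1 without a filter, at an adjusted p under 0.05 or a fold change above 1.5, 4 with log2 Adipoq as a covariate, and 1 to 2 when each mouse was left out. The 5 called in IKKβ-/- mice were 2 at an adjusted p under 0.05 or a fold change above 1.5, and 11 in DESeq2. With only the groups compared 2 genes were called, and of the 5 only Abcd2 was among them. There were 0 with log2 Adipoq or log2 Plin1 as a covariate or without X2384 and X2385. Leaving out each mouse in turn gave 1 to 10. The difference between responses gave 3 in DESeq2 and 0 to 0 without each mouse. With saline the genotypes differed in 1 with only the groups compared and in 1 in DESeq2, and in 0 to 2 without each mouse (2 without X2409). With Ang II they differed in 6 in DESeq2 and in 0 to 4 without each mouse (4 without X2356). The 2 genes associated with Adipoq were 4 with a pseudocount of 4 or with Plin1 in its place, 0 without X2384 and X2385, and 0 to 4 without each mouse. Plin1 turned from 4.04 to -0.88 in IKKβ-/- mice with log2 Adipoq in the fit, as its construction allows. TMM scaling moved the median of all genes by at most 0.03. For most of these settings shares over all genes are not given, so the counts are descriptions only.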
